A study of Rattus norvegicus with 8 samples.

Results

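Potassium channel genes were defined as all probe sets of the array with exactly 1 gene symbol in the platform's probe-to-gene table, where that symbol begins with Kcn followed by letters and a number. The rule found 126 of 31099 probe sets, which stood for 75 of the 14217 genes named on the array, in 18 subfamilies named by the letters after Kcn. All 75 symbols were the same in a current RefSeq gene table when matched by Entrez identifier. Total RNA came from homogenized frontal cortex. The rats were male, Sprague-Dawley, and weighed about 200 g when dosing began. For 21 days 20 of them received saline and 20 received 2 mg/kg/day of olanzapine, injected I.P., and 4 of each group were put on arrays. Olanzapine, used against psychosis, acts on dopamine and serotonin receptors, which it blocks, and the design compares the cortex of dosed and undosed rats. Arrays are named below by group and the number in their titles, 14, 15, 17 and 19 for saline and 9, 14, 18 and 19 for olanzapine. The labels give no age and do not say what the numbers stand for.

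Potassium channels let potassium ions leave the neuron and so set its resting potential, end its action potentials and limit its firing rate. Voltage-gated pores assemble from the Kcna, Kcnb, Kcnc, Kcnd, Kcnh and Kcnq products, calcium-activated pores from Kcnma and Kcnn, sodium-activated pores from Kcnt, inward rectifiers from Kcnj and leak channels from Kcnk. The Kcnab, Kcne, Kcnip and Kcnmb products are accessory subunits, and the Kcng, Kcns and Kcnv products are silent subunits that join other pores. In cortex Kcnc channels are known for the short spikes of fast-spiking interneurons, Kcnd channels with their Kcnip partners for the A-type current of dendrites, and Kcnj10 with Kcnj16 for potassium uptake by astrocytes.

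The probe sequences were not used here, and promoters are shown for context only. Of the 75 genes, 52 had a promoter in the RefSeq table of build GRCr8, taken as 250 bases before to 50 bases after the gene's start. These promoters were rich in CpG, with a median of 16.5 CpG dinucleotides and a G+C content of 62.0%, against 7.0 and 52.3% over all 27457 promoters of that length. A GC box (GGGCGG, either strand) was present in 30 of the 52, or 57.7%, against 34.9% of all promoters. A TATA box (TATAAA, either strand) was present in 2, those of the inward rectifier genes Kcnj1 and Kcnj13, or 3.85% against 14.3%. The sequences below belong to the genes with the smallest p-value in each direction among those with an entry, Kcnc2 (chr7:49587364-49587663, plus strand) and Kcnn3 (chr2:177234090-177234389, plus strand), written 5′ to 3′ with each CpG in capitals.
Kcnc2: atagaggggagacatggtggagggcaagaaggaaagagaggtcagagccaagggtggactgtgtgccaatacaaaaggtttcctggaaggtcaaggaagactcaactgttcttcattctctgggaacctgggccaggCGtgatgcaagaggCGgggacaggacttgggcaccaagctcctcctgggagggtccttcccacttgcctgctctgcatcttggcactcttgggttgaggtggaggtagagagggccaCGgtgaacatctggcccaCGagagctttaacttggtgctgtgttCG
Kcnn3: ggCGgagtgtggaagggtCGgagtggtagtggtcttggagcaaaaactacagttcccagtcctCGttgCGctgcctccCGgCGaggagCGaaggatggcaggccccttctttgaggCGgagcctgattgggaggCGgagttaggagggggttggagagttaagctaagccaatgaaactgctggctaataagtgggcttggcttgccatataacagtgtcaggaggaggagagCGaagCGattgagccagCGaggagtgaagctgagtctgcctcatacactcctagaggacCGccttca
The Kcnc2 window held 5 CpG and the Kcnn3 window 13, and neither held a GC box or a TATA box. The Kcnq5 window, by comparison, held 26 CpG and 2 GC boxes and that of Kcna2 40 CpG and 4 GC boxes. Kcnip4 had no entry.

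Olanzapine and saline arrays did not differ in any potassium channel gene at an adjusted p under 0.05. Values are deposited linear intensities, and differences are on the scale log2(intensity + 63.42), where a dim gene's change is understated. A filter on dim probe sets left 60 of the 126 probe sets, which stood for 44 genes, and each gene is described by its brightest probe set unless stated. In limma, a linear model with moderated variances, 0 of the 44 had an adjusted p under 0.05 against 0.0% of the 10123 genes tested. At an unadjusted p under 0.05 there were 2 higher in olanzapine (Kcnn3 and Kcnj14, where 4.25% of all genes tested were higher) and 2 lower (Kcnip4 and Kcnc2, where 4.23% were lower), so 4 of 44 stood against 8.48% of all genes in either direction. Kcnip4 and Kcnc2 lay among the brightest 5% of probe sets. Of these 932 probe sets, 358 were lower at that p as deposited and 53 after quantile normalization. Of the 44, Kcnn3, Kcnj16, Kcnj5 and Kcnk6 had a mean above the filter's limit only in olanzapine and Kcnj15 only in saline, so these 5 had to differ in that direction and their counts support nothing. Among the other 39, 25 lay above 0 and 14 below, and 3 of the 4 at an unadjusted p under 0.05 were among them. Differences were above 0 for 29 of the 44 and below 0 for 15, with a median of 0.044, and over all genes tested 53.4% were above 0 with a median of 0.015. The quartiles were -0.052 and 0.17 for the 44 genes and -0.10 and 0.14 for all genes. After quantile normalization, which gives every array the same distribution, 24 of the 44 were above 0 and the median was 0.0057.

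**Figure D1:**
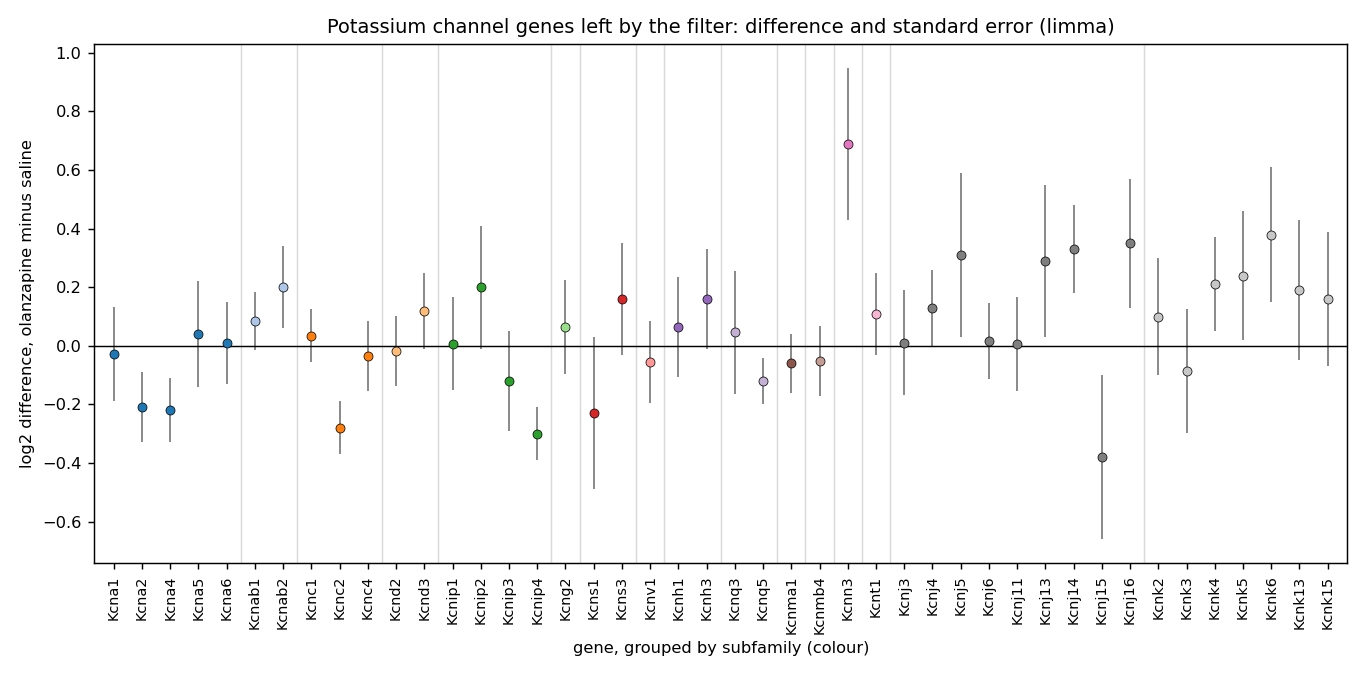
Log2 difference between olanzapine and saline (y axis) for each of the 44 potassium channel genes left by the filter (x axis), grouped by subfamily, with bars for the limma standard error. Points run from -0.38 for Kcnj15 to 0.69 for Kcnn3, and none passed an adjusted p of 0.05.

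The arrays differed in ways that touch these genes. Median intensities ran from 159.1 to 191.3 per array, and each array's median correlation with the others from 0.949 in saline 15 to 0.968 in olanzapine 14. Bright probe sets read lower under olanzapine: the median difference over the top 5% by mean value was -0.15 in the deposited scaling, -0.20 there without saline 19, and 0.00036 once quantiles were equalized. Over the 44 genes, the median deviation from each gene's mean over the arrays was -0.10 in saline 14 and 0.12 in saline 19, so that saline arrays lay at both ends, while the olanzapine arrays ran from -0.0095 to 0.077. Saline 14 was the lowest of the 8 arrays for 12 of the 44 genes. The spread within groups had a median SD of 0.24 log2 units over the 44 genes and 0.22 over all tested probe sets, and ran from 0.074 for Kcnq5 to 0.46 for Kcnj13.

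Of the voltage-gated Kcna genes, whose products form delayed rectifiers of axons and terminals, 5 of 6 were left by the filter, 2 above and 3 below 0, and the median was -0.027. Kcna4, which encodes a fast-inactivating pore subunit, read 3054, 3724, 3387 and 3508 in saline 14, 15, 17 and 19 and 2480, 3132, 2753 and 3350 in olanzapine 9, 14, 18 and 19. Olanzapine 9 and 18 lay below all saline arrays, and olanzapine 14 and 19 within their range. The difference was -0.22 (SE 0.11, limma adjusted p = 0.605), and -0.18 after quantile normalization. Kcna2, a main subunit of axonal channels near the node of Ranvier, had a mean of 870.4 ± 95.9 (SD, n = 4) in saline and of 745 ± 68.5 (SD, n = 4) in olanzapine, and later means are given in the same way. Its saline values of 852, 793, 826 and 1010 overlapped the olanzapine values of 711, 804, 799.9 and 665, and the difference was -0.21 (SE 0.12, limma adjusted p = 0.710). Kcna1, the gene of episodic ataxia in humans, was at 469 ± 81.9 in saline and 459 ± 78.9 in olanzapine, a difference of -0.027 (SE 0.16) that took the opposite sign when saline 14, saline 19 or olanzapine 9 was left out. Kcna5 differed by 0.041 and Kcna6 by 0.0085 as deposited, and both were below 0 after quantile normalization or median centring, where all 5 genes of the subfamily were. Kcna3 was left out by the filter.

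The Kcnc genes encode the fast delayed rectifiers that let interneurons fire at high rates, and all 3 were left by the filter. Kcnc2 read 9120, 9526, 9152 and 7766 in saline 14, 15, 17 and 19 and 7039, 6539, 7812 and 7923 in olanzapine 9, 14, 18 and 19. Saline 14, 15 and 17 lay above every olanzapine array, and saline 19 lay below olanzapine 18 and 19. The difference was -0.28 (SE 0.09, 0.83-fold, limma adjusted p = 0.434). Kcnc2 lay among the brightest 5% of probe sets, and after quantile normalization it differed by -0.12. Without saline 19 the difference was -0.34 with a limma adjusted p of 0.080, and -0.13 when the remaining arrays were also quantile normalized. A second tested probe set of Kcnc2, which is dimmer, differed by -0.17 (SE 0.22), and 4 more were left out by the filter. Kcnc1 was at 2818 ± 82.2 in saline and 2899 ± 310 in olanzapine, a difference of 0.034 (SE 0.09), and -0.018 after median centring or -0.022 without olanzapine 18. Kcnc4 differed by -0.034, by 0.021 without saline 19 and by -0.10 in its second probe set. Pvalb, the parvalbumin gene of fast-spiking interneurons, was at 759 ± 239 in saline and 731 ± 139 in olanzapine. Of 6 interneuron markers 3 lay above 0 and 3 below, with a median of 0.035. Gad2, at 0.17, passed the filter only through olanzapine and had to lie above 0, so the sign of that median supports nothing. In a tissue homogenate fewer cells of a type and less RNA per cell cannot be told apart.

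Kcnd pores and the calcium sensors encoded by Kcnip form the A-type channels of pyramidal cell dendrites. Kcnip4 was the member with the smallest p-value and 1 of 2 whose groups did not overlap. It read 5818, 5928, 6591 and 5430 in saline 14, 15, 17 and 19 and 4544, 4762, 4736 and 5220 in olanzapine 9, 14, 18 and 19. The lowest saline array, saline 19, and the highest olanzapine array, olanzapine 19, were the nearest to each other. The difference was -0.30 (SE 0.09, 0.81-fold, limma adjusted p = 0.361), and it stayed between -0.34 and -0.25 with any 1 array left out. Kcnip4 also lay among the brightest 5% of probe sets, and after quantile normalization it differed by -0.20. Without saline 19 its limma adjusted p was 0.090, and 0.554 with quantile normalization as well. Without saline 19, 0 of the 44 members had an adjusted p under 0.05, while 0.612% of all genes did with olanzapine lower and 0.0494% with olanzapine higher (0.515% and 0.0591% of all probe sets). The remaining genes of this subfamily did not take 1 direction, with Kcnip1 at 0.0077, Kcnip2 at 0.20 (0.073 without saline 19) and Kcnip3 at -0.12. Kcnip3, whose product is also the transcriptional repressor DREAM, was at 527 ± 159 in saline and 468 ± 40 in olanzapine. Its saline values of 384 to 726 spanned all olanzapine values, and without saline 15 the difference was 0.035.

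Neither measured Kcnd pore differed by more than its spread. Kcnd2 was at 1898 ± 269 in saline and 1868 ± 193 in olanzapine, a difference of -0.017 (SE 0.12) whose sign was opposite without saline 14, saline 19, olanzapine 9 or olanzapine 18. Kcnd3 was at 2223 ± 426 in saline and 2398 ± 269 in olanzapine, a difference of 0.12 (SE 0.13) that was 0.013 without saline 19. Kcnd1 was left out by the filter. The cytosolic beta subunits of Kcna channels had both measured genes above 0. Kcnab2 read 1104, 1659, 1147 and 1059 in saline and 1350, 1607, 1587 and 1172 in olanzapine, where saline 15 was the highest of all 8. The difference was 0.20 (SE 0.14, limma adjusted p = 0.764), and 0.35 without saline 15. Kcnab1 differed by 0.085, by 0.16 after quantile normalization and by 0.028 without saline 19. As deposited it was the only 1 of the 5 members among the brightest 5% of probe sets that lay above 0.

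**Figure D2:**
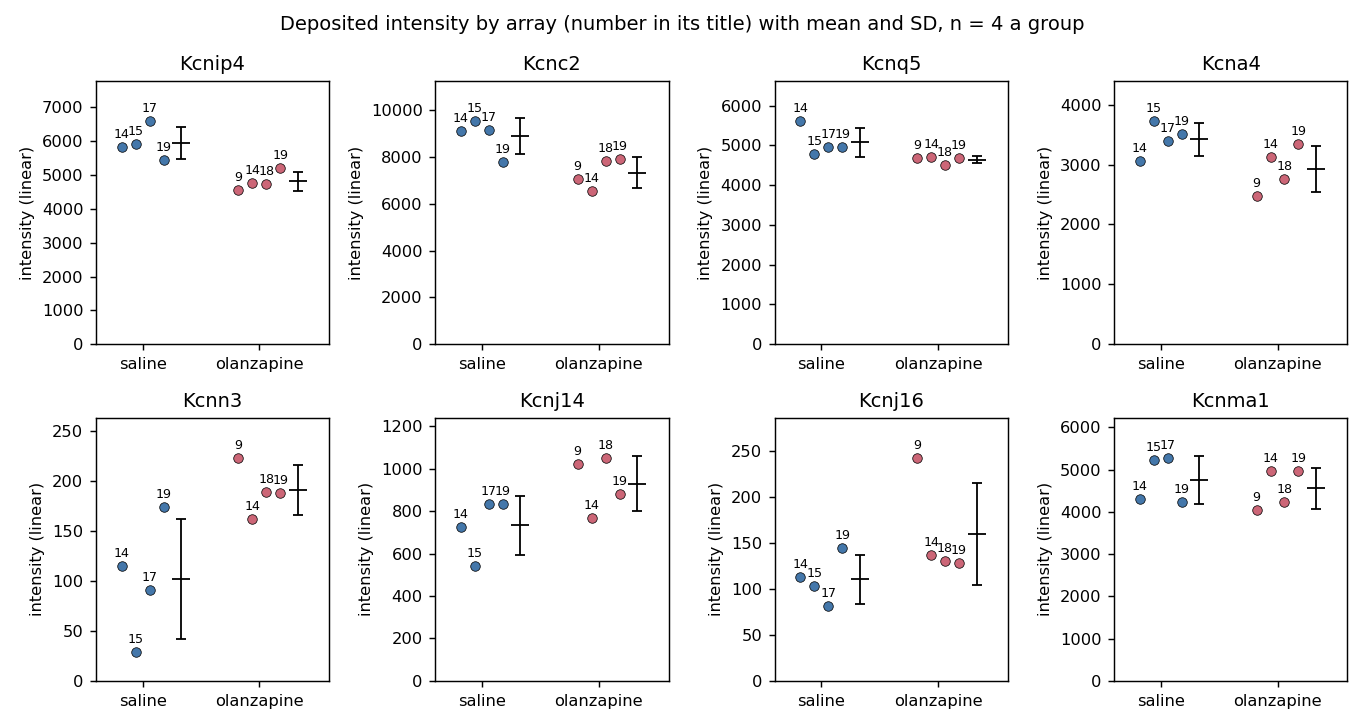
Deposited linear intensity (y axis, from 0) of 8 potassium channel genes in each array, labelled by the number in its title, with the group mean and SD in black (n = 4 a group). The groups are apart for Kcnip4 and Kcnq5 and overlap for the other 6 genes.

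Kcnq products carry the M-current, a slow potassium current that muscarinic receptors shut, and Kcnq5 was the other member whose groups did not overlap. It read 5611, 4781, 4965 and 4956 in saline 14, 15, 17 and 19 and 4688, 4713, 4501 and 4679 in olanzapine 9, 14, 18 and 19. The gap between the groups, from 4713 to 4781, was small beside the saline SD of 365. The difference was -0.12 (SE 0.08, limma adjusted p = 0.744), -0.076 without saline 14 and -0.039 after quantile normalization. A second tested probe set differed by -0.0019. Members without overlap and with olanzapine lower were thus 2 of 44, where 2.33% of all genes tested were of that kind, and none was of the opposite kind, where 2.25% of all genes were. By probe set these were 2 and 0 of 60, beside 2.07% and 2.4% of all. Both Kcnip4 and Kcnq5 lay among the brightest 5% of probe sets, of which 173 of 932 were without overlap and lower in olanzapine as deposited. After quantile normalization 40 of these 932 were. Kcnq3, a subunit of the neuronal M-channel, was at 205 ± 75.5 in saline and 207 ± 28.9 in olanzapine, and its difference of 0.047 (SE 0.21) was -0.11 without saline 15. Its second probe set differed by 0.38 (SE 0.26). Kcnq1, the cardiac subunit, was left out by the filter.

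Of the 8 Kcnh genes, which encode the ether-a-go-go family, 6 were left out by the filter, and the remaining Kcnh1 and Kcnh3 differed by 0.065 and 0.16. Kcnh2 encodes the cardiac ERG channel that many antipsychotic drugs block as a side effect. Its only probe set was at 23.5 ± 20.0 in saline and 22.0 ± 25.6 in olanzapine and was not tested. Among the silent subunits, Kcng2 and Kcns3 lay above 0 at 0.064 and 0.16 and Kcns1 and Kcnv1 below at -0.23 and -0.055, each by less than its standard error, and without saline 19 Kcng2 was at -0.052. Kcng2 and Kcnv1 each stood alone for their subfamily.

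Calcium-activated channels shape the pause after a spike. Kcnn3, a small-conductance subunit, had the largest difference of the 44 genes. It read 115, 28.8, 90.4 and 174 in saline 14, 15, 17 and 19 and 223, 162, 189 and 188 in olanzapine 9, 14, 18 and 19. Saline 14, 15 and 17 lay below every olanzapine array, and saline 19 lay within the olanzapine range. The difference was 0.69 (SE 0.26, 1.62-fold, limma adjusted p = 0.510). It was 0.63 after quantile normalization, 0.44 without saline 15, where the signal was 28.8, and 0.89 without saline 19. Kcnn3 had 1 probe set, whose mean log2 value was 7.29 in saline, under the filter's limit of 7.47, and 7.98 in olanzapine, so that it passed the filter only through the group where it was high. Kcnma1, the pore of the large-conductance channel, was at 4759 ± 568 in saline and 4557 ± 491 in olanzapine. Its difference of -0.060 (SE 0.10) was 0.028 after quantile normalization, and a second probe set differed by 0.14. Kcnmb4, its neuronal beta subunit, differed by -0.051, and the sodium-activated Kcnt1 by 0.11, with 0.13 in its second probe set. Kcnn1, Kcnn4 and Kcnmb1 were left out by the filter, and Kcnn2 is not analysed here.

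Of the inward rectifier genes, 9 of 15 were left by the filter, and 8 of these lay above 0, with a median of 0.13. Kcnj16 and Kcnj5, above 0, and Kcnj15, below 0, passed the filter only through their higher group, and the other 6 lay above 0. Kcnj14 read 727, 539.6, 832 and 832 in saline 14, 15, 17 and 19 and 1020, 767, 1051 and 881 in olanzapine 9, 14, 18 and 19. Saline 15 was the lowest, olanzapine 14 lay within the saline range and the other 3 olanzapine arrays lay above it. The difference was 0.33 (SE 0.15, limma adjusted p = 0.572), 0.29 after quantile normalization and 0.20 without saline 15. Kcnj16, which pairs with Kcnj10 in astrocytes, read 113, 103, 81.1 and 145 in saline and 243, 137, 131 and 128 in olanzapine. Olanzapine 9 stood apart, and without it the difference of 0.35 (SE 0.22) was 0.18. Transcripts of the meninges also had their highest mean in olanzapine 9, at 9.51 log2 units against 8.66 to 8.92 in the other olanzapine arrays and 8.28 to 8.43 in saline. All 7 of 7 markers lay above 0, but Dcn among them passed the filter only through olanzapine and had to. The part of the meninges in the Kcnj16 result was not tested. A second Kcnj16 probe set, left out by the filter, differed by 0.40 (SE 0.26). In it olanzapine 9, at 79.7, was the lowest olanzapine array. All 7 astrocyte markers lay below 0 as deposited, with a median of -0.16. After quantile normalization the median was -0.076 and Gja1 lay above 0, at 0.080. The only probe set of Kcnj10, whose product is the main astrocyte rectifier, was at 26.5 ± 16.9 in saline and 45.9 ± 38.7 in olanzapine and was left out by the filter.

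Kcnj3, Kcnj6 and Kcnj5 encode subunits of the channels that G protein-coupled receptors, including D2 dopamine receptors, open. Kcnj3 was at 337 ± 34.6 in saline and 348 ± 102 in olanzapine, a difference of 0.011 (SE 0.18) that was -0.041 after either quantile normalization or median centring. Kcnj6 differed by 0.015 in its brightest probe set and by 0.28 and 0.25 in 2 more, in which saline 19 read 345 and 150.2 against olanzapine ranges of 249 to 315 and 134 to 168. Kcnj5 differed by 0.31 (SE 0.28), with saline values from 58.4 to 218, and Kcnj9 was left out by the filter. Kcnj15 was the only gene of the subfamily below 0, at 148 ± 60.6 in saline and 101 ± 49.7 in olanzapine, with a difference of -0.38 (SE 0.28) that was -0.14 without olanzapine 14. Kcnj13, an epithelial rectifier gene of the choroid plexus, differed by 0.29 (SE 0.26), and all 5 choroid plexus markers, among them Ttr at 124 ± 28 in saline and 93.0 ± 60.4 in olanzapine, were left out by the filter. The count of 8 of 9 above 0 was 5 of 9 after quantile normalization, after median centring and without saline 15. Among the dimmer 50% of all tested probe sets, the median difference as deposited was 0.071.

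The Kcnk genes encode the leak channels with a doubled pore domain, and 7 of 11 were left by the filter, 6 above 0, with a median of 0.19. Kcnk6 passed only through olanzapine, with means of 7.33 and 7.71 log2 units in saline and olanzapine, and of the other 6 genes 5 lay above 0. Kcnk6 read 45.8, 109, 131 and 119 in saline and 169, 127, 122 and 168 in olanzapine, where saline 14 was the lowest and the groups overlapped. The difference was 0.38 (SE 0.23, limma adjusted p = 0.730), and 0.19 without saline 14. Kcnk4, a mechanically and heat-gated channel gene, was at 375 ± 76.1 in saline and 442 ± 72.2 in olanzapine, a difference of 0.21 (SE 0.16) that was 0.12 without olanzapine 14 and 0.30 without saline 19. Kcnk5, Kcnk13, Kcnk15 and Kcnk2 differed by 0.24, 0.19, 0.16 and 0.10, and Kcnk3 by -0.086. Without saline 19 these values were 0.10, 0.37, 0.26, 0.22 and -0.024. After quantile normalization the median was 0.14 with 6 of 7 above 0, and without saline 14 it was 0.026 with 4 of 7. Kcnk1, whose product is a weakly conducting channel of brain, was left out by the filter at 57.5 ± 18.2 in saline and 96.5 ± 37.7 in olanzapine.

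**Figure D3:**
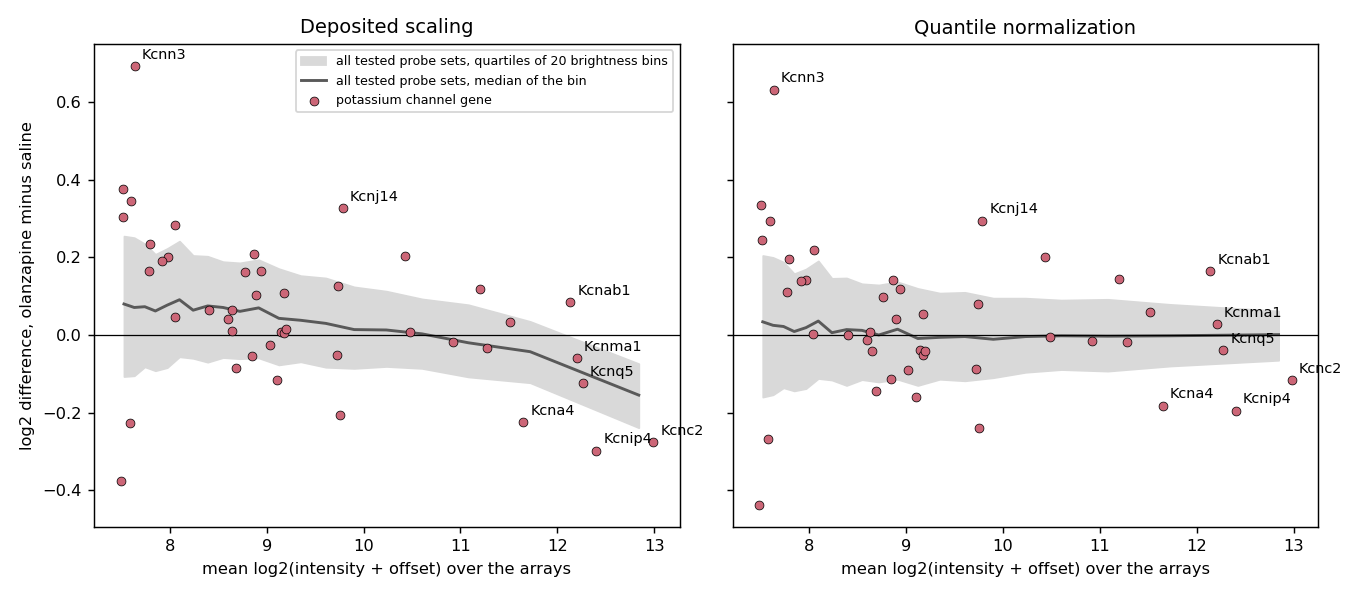
Log2 difference between olanzapine and saline (y axis) against mean log2 value over the 8 arrays (x axis) for 44 potassium channel genes (points), with the median and quartiles of all tested probe sets in 20 brightness bins (line and band). The line bends from 0.08 in the dimmest bin to -0.155 in the brightest as deposited and runs from 0.034 to 0.001 after quantile normalization, where Kcnip4 lies at -0.20 and Kcnn3 at 0.63.

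Members among the brightest 5% of probe sets and dimmer members differed in direction, as did all probe sets. Of the 5 bright genes, Kcnip4, Kcnc2, Kcnq5, Kcnma1 and Kcnab1, 4 lay below 0 with a median of -0.12, and of the 932 probe sets at that brightness 827 lay below 0 with a median of -0.15. Of the 39 genes outside the brightest 5%, 28 lay above 0 with a median of 0.064. Of the other 17693 tested probe sets 10323 lay above 0, with a median of 0.038. Among these 39 genes Kcnn3, Kcnj16, Kcnj5 and Kcnk6, above 0, and Kcnj15, below 0, passed the filter only through their higher group. Their directions were fixed and add nothing to the count. After quantile normalization the 5 bright genes Kcnip4, Kcnc2, Kcnq5, Kcnma1 and Kcnab1 were at -0.20, -0.12, -0.039, 0.028 and 0.16, against -0.30, -0.28, -0.12, -0.060 and 0.085 as deposited. Among dimmer genes Kcna4 and Kcna2 were at -0.18 and -0.24 and Kcnn3 and Kcnj14 at 0.63 and 0.29, and none of the 44 had an adjusted p under 0.05.

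Several genes were measured by more than 1 probe set. Of the 75 genes, 31 had more than 1 probe set, up to 6 for Kcnc2, and 14 had more than 1 that was left by the filter. In 7 of these 14 all tested probe sets had the same sign, and in 7 the signs differed, and in Kcna6, Kcnd2 and Kcnj3 the gap between them was smaller than either standard error. Kcnj11, the pore of the ATP-sensitive channel, was the widest case and was singled out after its values were seen. Its brightest probe set, of a type whose probes can match more than 1 sequence, was at 519.9 ± 92.2 in saline and 524 ± 103 in olanzapine, a difference of 0.0056. A second one read 464, 383, 374 and 221 in saline 14, 15, 17 and 19 and 221, 177, 308 and 142 in olanzapine 9, 14, 18 and 19, a difference of -0.62 (SE 0.22, limma adjusted p = 0.486) and the third tested potassium channel probe set with an unadjusted p under 0.05 and a lower value. Saline 14, 15 and 17 lay above every olanzapine array, and saline 19 within them. Kcnip1 ranged from -0.39 to 0.0077 and Kcnq3 from 0.047 to 0.38. The Kcnip1 probe set at -0.39 passed the filter only through saline and had to lie below 0. Counted by probe set, 37 of 60 lay above 0 and 23 below, with 2 higher and 3 lower at an unadjusted p under 0.05, against 4.59% and 3.73% of all 18625 tested probe sets (8.32% in either direction, and 56.0% above 0). These counts include that Kcnip1 probe set and those of Kcnn3, Kcnj16, Kcnj5, Kcnk6 and Kcnj15 that passed only through their higher group. Kcnn3 is also 1 of the 2 higher, so the directions of these probe sets support nothing.

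**Figure D4:**
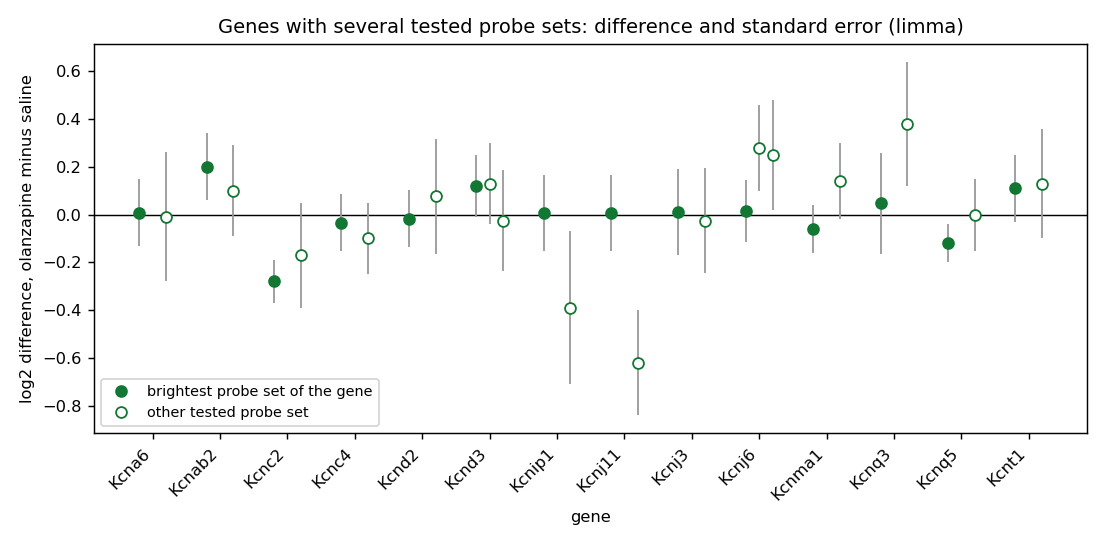
Log2 difference between olanzapine and saline (y axis) with the limma standard error for each tested probe set of the 14 genes (x axis) with more than 1, the brightest probe set filled and the others open. Kcnj11 shows the widest gap, 0.0056 against -0.62, and Kcnt1 and Kcna6 the narrowest.

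The filter left out 66 probe sets and with them 31 genes, among them Kcnb2, all 4 Kcne genes of small accessory subunits, 6 of 8 Kcnh genes, 6 of 15 Kcnj genes and 4 of 11 Kcnk genes. A dim probe set bounds what can be seen and does not show that its gene is silent. Without the filter these 66 ran from -0.46 to 0.75 with a median of 0.056, and 2 had an unadjusted p under 0.05, both higher in olanzapine, against 3.61% of all 12417 probe sets left out that were higher and 2.44% that were lower. These 2, named after their values were seen, belonged to Kcne4 and Kcnk6. Kcne4, an accessory subunit that restrains Kcna and Kcnq channels, read 29.4, 71.9, 38.1 and 119 in saline 14, 15, 17 and 19 and 142, 103, 199 and 142 in olanzapine 9, 14, 18 and 19. Olanzapine 14 lay below saline 19, so that the groups overlapped. The second probe set of Kcnk6 was at 29.3 ± 17.1 in saline and 68.6 ± 19.5 in olanzapine. The brighter one was also higher in olanzapine, but it passed the filter only through that group. Its direction was fixed, so the shared direction supports nothing.

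A list of 23 genes whose products bind, cluster or regulate potassium channels had 18 genes on the array and 16 left by the filter, 7 above and 9 below 0, with a median of -0.0061 against 0.015 over all genes tested. None passed the adjusted test, and 3 had an unadjusted p under 0.05, all lower in olanzapine, beside 4.23% of all genes tested that were lower and 8.48% in either direction. All 3 lay among the brightest 5% of probe sets, of which 358 of 932 were lower at that p. Adam22, the synaptic receptor that ties Lgi1 to Kcna channels, read 5252, 4839, 4846 and 5741 in saline and 3914, 4212, 4289 and 4017 in olanzapine, without overlap. The difference was -0.32 (SE 0.08, limma adjusted p = 0.330), and -0.24 after quantile normalization. Vapa, an endoplasmic reticulum protein that anchors Kcnb channels, had a difference of -0.21 (SE 0.08), and with equalized quantiles its difference was 0.062. Calm2, 1 of the genes of calmodulin, the calcium sensor of Kcnn and Kcnq channels, had a difference of -0.19 (SE 0.08), or -0.063 with equalized quantiles. Abcc9, a regulatory subunit of ATP-sensitive channels, differed by 0.33 (SE 0.16), and Lgi1, Dpp6, Cntnap2 and Dlg4 by -0.17, -0.084, 0.025 and 0.039.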

How the data were processed

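Array RNA of 8 rats, 1 array each, was analysed, 4 saline and 4 olanzapine, grouped by the sample titles. The deposited values are linear probe set intensities which the authors had scaled per array, as shown by equal means of 500 after removal of the lowest and highest 2%. For the scanner software, the background correction and the summary method, the sources used here state nothing. Of 31099 probe sets 57 were controls. Of the other 31042, 20826 had 1 gene symbol, 436 several and 9780 none in the platform's annotation, and only the first were named.

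Intensities were converted to log2(intensity + 63.42), the offset being the 25th percentile of all values. Probe sets above the 40th percentile of mean log2 value (7.47) were tested, 18625 in all, with limma 3.58.1 in R 4.3.3 (lmFit, eBayes with trend, two-sided, Benjamini-Hochberg over all tested, no covariates). A gene was described by its probe set with the highest mean. In simulated data on the 18625 probe sets, 42.8% of 1.5-fold, 84.6% of 2-fold and 98.2% of 3-fold changes were called, and 6.44% of calls were false. That simulation held no correlation between probe sets. Its folds were set on the scale log2(intensity + 63.42), where a dim gene's change in intensity is larger than the fold named. Its noise was normal, with limma's moderated variances.

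Members, lists and tests were chosen with earlier results of these data known. Genes named are the 6 of lowest unadjusted p on either side, genes whose groups did not overlap, 16 genes fixed by name, and the 3 partner genes with the smallest p. Genome coordinates of the probes were not used here. Alternatives changed the scaling, offset, filter, trend, array weights and arrays, and blocked by the number in the title. The number of arrays limits the precision, and the spread between arrays holds animal and technical variation.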

Additional observations from a re-analysis of the deposited data

Results flagged for a closer look

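Dixon's test was applied to the log2 values of 46 groups of 4 arrays, 23 named genes in each treatment, and chance flags about 1 in 20 groups. It marked 2 arrays. Kcnj16 in olanzapine 9 was at 243, far from the 128 to 137 of the other olanzapine arrays. In its dimmer probe set, to which the test was not applied, olanzapine 9 was the lowest olanzapine array, at 79.7. Kcnq5 in olanzapine 18 was at 4501, below the 4679 to 4713 of the other olanzapine arrays, which lay close together.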

How the results depend on the processing

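Over the 17 other settings run, of which quantile normalization without saline 19 was added after the data were seen, no potassium channel probe set had an adjusted p under 0.05 in limma. The count over all probe sets was 0 as reported, 6 with a replicate block, 5 with quantile normalization and no saline 19, and 0 to 107 with 1 array left out, the 107 without saline 19 and 1 without olanzapine 9. The count of potassium channel genes above 0, 29 of 44 as reported, was 46 of 75 without the filter. With a stricter filter at the 60th percentile, which left fewer genes, 19 lay above 0 and 13 below. The count below 0, 15 of 44 as reported, was 23 after median centring, 29 of 75 without the filter and 23 of 60 over all tested probe sets. The count at an unadjusted p under 0.05, 4 as reported, was 2 after quantile normalization and 0 with a replicate block. Both counts with a replicate block rest only on the arrays numbered 14 and 19 for the difference, as described below. The partner genes' median was -0.058 after median centring.

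Of 23 named genes, 15 kept their sign in every setting in which they were tested. Many of the 23 were chosen for a small p on these same arrays, which favours a stable sign, so this count does not measure robustness. Among the 15, Kcnn3, Kcnj16, Kcnk6 and Kcnj15 also passed the filter only through their higher group. Quantile normalization turned Kcnj3 to -0.041, Kcnma1 to 0.028 and Vapa to 0.062, and with saline 19 left out as well Kcnd2, Kcnj3, Kcnma1 and Vapa were at 0.062, -0.041, 0.0091 and 0.067. Median centring turned Kcnc1 to -0.018, Kcnq3 to -0.0047 and Kcnj3 to -0.041, and array weights turned Kcnj3 to -0.044. With 1 array left out, Kcna1 ran from -0.14 to 0.088, Kcnc1 from -0.022 to 0.10, Kcnd2 from -0.11 to 0.046, Kcnq3 from -0.11 to 0.18, Kcnj3 from -0.12 to 0.16 and Kcnip3 from -0.24 to 0.035. The cause of these changes was not tested.

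The numbers 14 and 19 occur in the titles of both groups, and the labels do not say that they pair samples. Deviations of same-numbered samples correlated at 0.0746 and 0.109. With the replicate block, which leaves little freedom, Kcnq3 was at -0.021, Kcnma1 at 0.22 and Kcnip3 at 0.11, and Kcnn3, Kcnj14, Kcnj16, Kcna4 and Kcnip4 were at 0.21, 0.075, 0.034, -0.015 and -0.17.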

Other observations

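Several potassium channel genes lie next to each other in the rat genome, judged by the order of protein-coding genes in RefSeq, and 8 adjacent pairs were found. Kcna5, Kcna1 and Kcna6 follow each other and differed by 0.041, -0.027 and 0.0085 between olanzapine and saline (log2, olanzapine minus saline). In the pair of Kcnj6 and Kcnj15 the differences were 0.015 and -0.38. In each of the pairs Kcnj16 with Kcnj2, Kcnj5 with Kcnj1, Kcna2 with Kcna3 and Kcnip1 with Kcnmb1, 1 gene was left out by the filter on dim probe sets, and in the pair of Kcnj9 and Kcnj10 both were. No difference among these neighbours passed the adjusted test.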
